A study of Mus musculus with 9 samples.

Results

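Procr, Esam, Emcn, Eng, Pecam1, Cdh5, Jam3, Robo4 and Myct1 encode surface and junction proteins that hematopoietic stem cells (HSCs) share with the endothelium. They were measured on Affymetrix arrays in sorted Lin-Sca1+cKit+ (LSK) bone marrow cells, the fraction that holds HSCs and multipotent progenitors. All probe sets whose platform annotation names exactly 1 of these genes were taken. That gave 15 of the 45037 probe sets other than controls and 9 of 18193 annotated genes. Of the 15, 12 probe sets of 7 genes had a mean level above the 40th percentile of all probe sets (4.03 on the log2 scale) and were tested, and the probe sets of Cdh5 and Robo4 fell below it.

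All recipients were C57BL/6 mice given 10 Gy of irradiation and transplanted with cells of C57BL/6 donors, and LSK cells were sorted 8 weeks later. The control group received wild-type LSK cells. The other groups were the GFP-negative (dnMPL GFP neg) and GFP-positive (dnMPL GFP pos) LSK cells of mice transplanted with dnMPL-transduced cells, in which GFP marks the retroviral transgene. There were 3 arrays in every group, and marrow of 2 to 5 mice was pooled for an array. The sample labels call the transplanted cells LSK, whereas the design text describes them as lineage-negative marrow cells that were cultured with cytokines and transduced with retroviral vectors. It is not given whether control cells had been transduced with a vector, nor whether the GFP-negative and GFP-positive arrays came from the same mice. They also do not say that the pools of a group held different mice, so p-values measure only the spread between these samples, which may be technical. Levels are deposited log2 values processed by RMA, which puts the probes of all arrays on 1 distribution. Array medians of the resulting probe set values ran from 4.52 to 4.64. On the log2 scale a difference of 1 is a doubling, and its standard error (SE) or 95% interval comes from limma. Precision is limited by the number of arrays.

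In the embryo HSCs emerge from hemogenic endothelium, and several surface proteins stay shared with endothelium in the adult. Many of these proteins sit at cell contacts, where they hold endothelial junctions together, while others receive signals from ligands in the blood or the niche. In marrow, EPCR (the product of Procr), ESAM and endomucin (the product of Emcn) are used to enrich HSCs from other LSK cells. Their levels in sorted LSK RNA depend on how many cells of a type are present and on how much RNA each cell holds, and bulk arrays cannot tell fewer cells apart from less RNA per cell.

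The promoters of 4 of these genes are shown because Procr, Myct1 and Emcn had lower group means in both dnMPL fractions and Eng is shown beside them because its brighter probe set overlapped between all groups. RefSeq promoter entries (build GRCm38.p6) matched 5 of the 9 genes, among them Robo4. Each line gives the 250 bases before the start, 5′ to 3′, and capitals mark matches to motifs bound by factors common to blood and endothelium.
Procr (chr2:155750967-155751216, plus strand): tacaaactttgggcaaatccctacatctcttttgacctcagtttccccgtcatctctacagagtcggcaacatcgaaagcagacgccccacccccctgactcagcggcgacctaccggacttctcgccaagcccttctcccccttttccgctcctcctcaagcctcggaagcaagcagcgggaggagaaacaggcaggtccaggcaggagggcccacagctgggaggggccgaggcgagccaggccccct
Myct1 (chr10:5593478-5593727, plus strand): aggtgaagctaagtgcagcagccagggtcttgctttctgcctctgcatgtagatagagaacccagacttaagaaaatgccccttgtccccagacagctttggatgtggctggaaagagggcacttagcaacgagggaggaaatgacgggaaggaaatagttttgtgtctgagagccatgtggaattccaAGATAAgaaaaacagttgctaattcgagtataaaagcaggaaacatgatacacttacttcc
Emcn (chr3:137340828-137341077, plus strand): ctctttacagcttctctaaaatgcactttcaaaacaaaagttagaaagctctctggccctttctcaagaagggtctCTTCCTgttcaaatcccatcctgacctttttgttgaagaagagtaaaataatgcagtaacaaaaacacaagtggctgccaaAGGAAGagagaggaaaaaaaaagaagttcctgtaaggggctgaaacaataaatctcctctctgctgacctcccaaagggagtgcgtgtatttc
Eng (chr2:32646345-32646594, plus strand): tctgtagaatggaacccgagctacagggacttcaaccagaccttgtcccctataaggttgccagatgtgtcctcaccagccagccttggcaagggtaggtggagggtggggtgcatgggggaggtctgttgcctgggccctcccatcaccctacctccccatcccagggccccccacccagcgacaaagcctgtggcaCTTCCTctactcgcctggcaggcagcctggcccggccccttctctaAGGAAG
The motifs were AGGAAG for ETS factors, AGATAA for GATA factors and TGTGGT for RUNX factors, searched on both strands, and none of their matches overlapped another. Emcn and Eng each held 2 ETS matches, and Robo4 held 1. Myct1 held 1 GATA match, 61 bases before the start, and Procr held no match to these letters. Over 32851 promoter windows of the same length, 29.5% held the ETS letters, 10.0% the GATA letters and 14.0% the RUNX letters.

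In both dnMPL fractions the group means of Procr, Emcn and Myct1 were lower than in controls and that of Pecam1 was higher, while Esam was lower mainly in GFP-negative cells. In GFP-positive cells 11 of the 12 tested probe sets had a lower mean than in controls, with a median difference of -1.51, against -0.016 over all 27024 probe sets tested. The groups did not overlap in 5 of the 12 in the lower direction (1 Procr, 1 Emcn and 3 Myct1), a share to be read against a background of 4.00% of all tested probe sets, and in 1 (Pecam1) in the higher direction, against 4.39%. In GFP-negative cells 11 of 12 were again lower, with a median of -1.35 against -0.0098 over all probe sets. Here 6 did not overlap in the lower direction (1 Procr, 1 Esam and 4 Myct1; background 5.71%) and 1, Pecam1, in the higher (background 5.13%). The 4 Myct1 probe sets measure 1 gene, so these counts and medians do not weigh the genes equally. With each of the 7 genes read by its brightest probe set, 6 had a lower mean in either comparison. Of all 12400 genes read this way, 52.8% and 53.5% did. The members' medians were -0.43 in GFP-positive cells, the value of Esam, and -1.31 in GFP-negative cells. Read that way, the groups did not overlap in the lower direction for 2 genes (Procr and Emcn) and 3 genes (Procr, Esam and Myct1). Pecam1 did not overlap in the higher direction in either comparison. The share of all genes that were separate in this reading was not computed, so these gene counts have no background beside them. Both comparisons also use the same 3 controls.

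No member passed limma at an adjusted p under 0.05 in either comparison, and neither did any other probe set (0 of 27024 called, 0%). The smallest adjusted p among members was 0.458 in GFP-positive and 0.6 in GFP-negative cells. At an unadjusted p under 0.05, 6 member probe sets were lower and 1 was higher in GFP-positive cells (backgrounds 2.72% and 3.15%), and 7 were lower and 1 was higher in GFP-negative cells (backgrounds 2.36% and 2.94%). Among the arrays, control 3 and GFP-positive 2 differed most from the rest. Weights that limma estimated for the arrays were 0.383 and 0.4 for them and 0.927 to 2.03 for the others. Their Gapdh control probes, a measure of transcript completeness, read 3.87 and 3.22 units brighter at the 3′ than at the 5′ end, against 2.47 to 2.89 elsewhere. Without both, 6 member probe sets were separate in the lower direction in GFP-positive cells and 7 in GFP-negative cells, but with fewer arrays the backgrounds rose to 16.4% and 12.7%. The median differences were then -1.01 and -1.39.

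**Figure D1:**
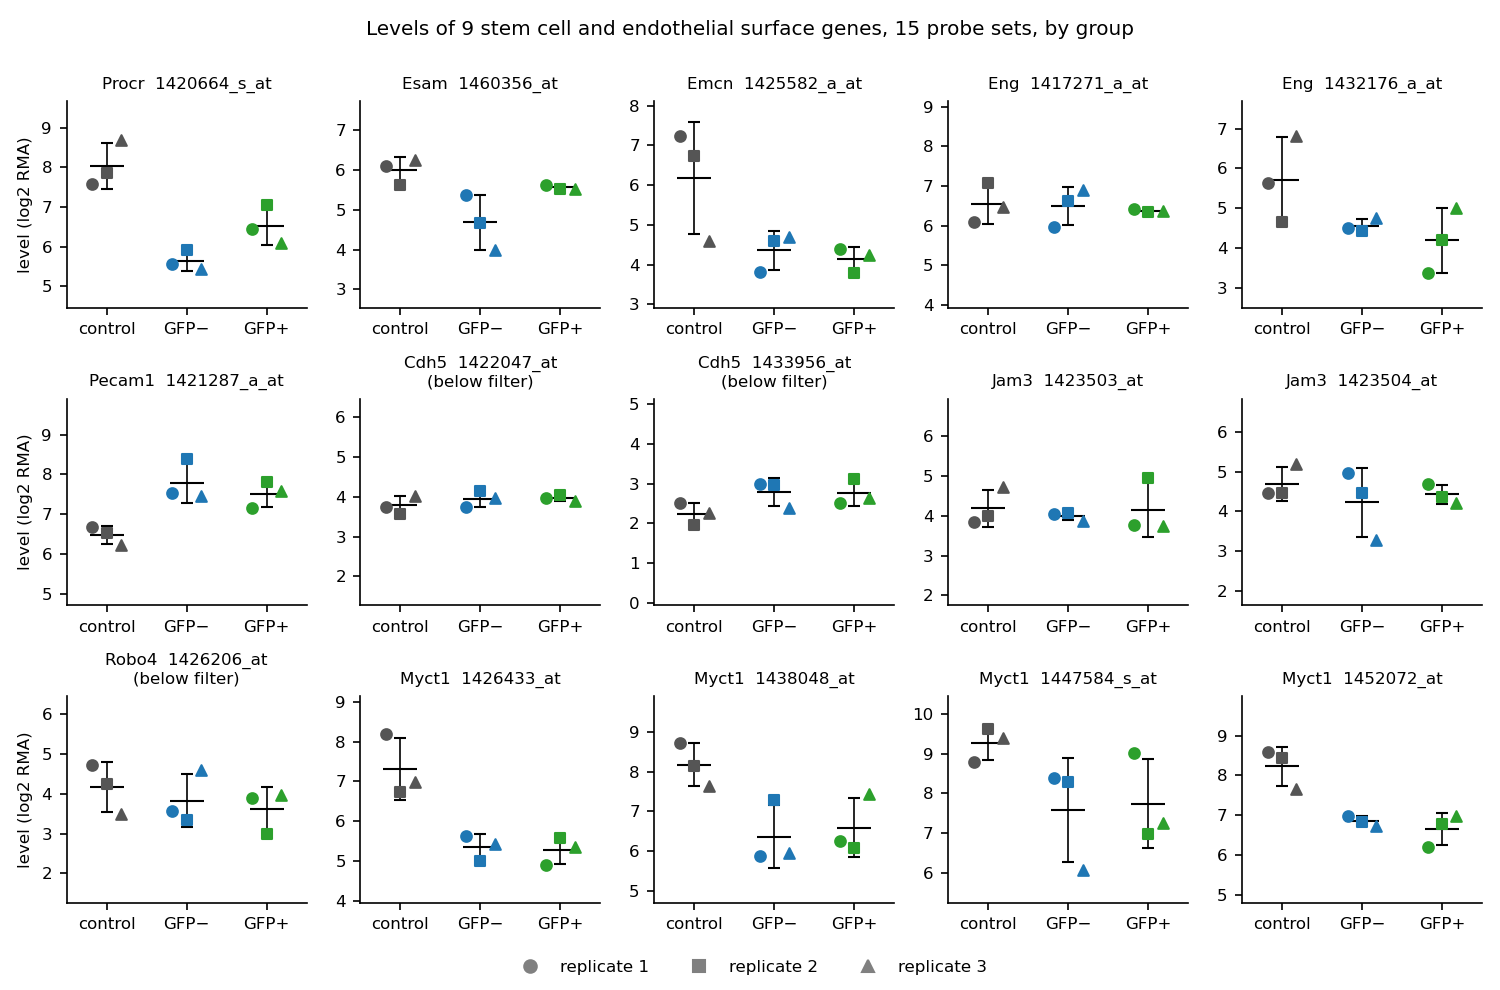
Level (log2 RMA, vertical axis, 5.2 units tall in every panel) of each of the 15 probe sets on every array, by group; symbols give the replicate number, the horizontal bar is the group mean and the error bar the SD of 3 arrays. Procr and Myct1 1426433_at lie lower on all 6 dnMPL arrays than on the 3 control arrays, Pecam1 lies higher, and Cdh5 stays between 1.95 and 4.16.

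Procr encodes the endothelial protein C receptor, which presents protein C to thrombin-thrombomodulin for activation and marks HSCs. Its 1 probe set (1420664_s_at, Entrez gene 19124) stood at 7.57, 7.85 and 8.69 in controls. In GFP-negative cells it was at 5.56, 5.93 and 5.43, and in GFP-positive cells at 6.46, 7.05 and 6.09. The 3 groups did not overlap, and their order was control, GFP-positive, GFP-negative. The difference from control was -2.40 ± 0.38 (SE) in GFP-negative cells, rank 4 of 27024 by p (limma adjusted p = 0.6), and -1.50 ± 0.38 in GFP-positive cells, rank 141 (adjusted p = 0.605). No single array carried these values. Leaving out arrays in turn gave -2.63 to -2.07 and -1.76 to -1.18.

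Esam encodes an immunoglobulin-type adhesion protein of endothelial tight junctions that is also present on HSCs. Its probe set (1460356_at, Entrez gene 69524) stood at 6.10, 5.62 and 6.27 in controls, at 5.38, 4.67 and 4.00 in GFP-negative cells, and at 5.63, 5.53 and 5.53 in GFP-positive cells. All GFP-negative arrays lay below all controls, whereas GFP-positive 1 lay just above control 2. Esam differed from control by -1.31 ± 0.37 in GFP-negative cells (limma adjusted p = 0.777) and by -0.43 ± 0.37 in GFP-positive cells (adjusted p = 0.947), the second with a 95% interval of -1.27 to 0.41. GFP-positive 2 and 3 carry 1 identical value, as median polish in RMA can give, so the SD of 0.06 in that group may understate its spread.

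Emcn encodes endomucin, a sialomucin of venous and capillary endothelium. Its probe set (1425582_a_at, Entrez gene 59308) stood at 7.24, 6.72 and 4.59 in controls, at 3.81, 4.59 and 4.69 in GFP-negative cells, and at 4.39, 3.79 and 4.24 in GFP-positive cells. Controls 1 and 2 were high, and control 3, the array with the widest Gapdh difference between the ends, lay within the range of the GFP-negative arrays. The differences from control were -2.05 ± 0.62 in GFP-positive cells (limma adjusted p = 0.747) and -1.82 ± 0.62 in GFP-negative cells (adjusted p = 0.841). They rest on how the controls are weighed. Without control 3 they were -2.84 and -2.62, and without control 1 they were -1.52 and -1.29.

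Myct1 encodes a small membrane protein, first described as a MYC target, that is found in endothelium and HSCs. It has 4 probe sets (Entrez gene 68632), of which 1426433_at and 1452072_at were designed on the same transcript accession. Probe set 1426433_at stood at 8.19, 6.74 and 6.99 in controls, at 5.64, 5.00 and 5.43 in GFP-negative cells and at 4.90, 5.57 and 5.35 in GFP-positive cells. Both dnMPL fractions lay over 1 unit below the lowest control, and they overlapped each other. The differences were -2.03 ± 0.42 in GFP-positive cells (rank 44 of 27024 by p; limma adjusted p = 0.458) and -1.95 ± 0.42 in GFP-negative cells (rank 43; adjusted p = 0.606).

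The other Myct1 probe sets also had lower means in both dnMPL fractions. Probe set 1452072_at stood at 8.60, 8.43 and 7.67 in controls, at 6.98, 6.84 and 6.73 in GFP-negative cells and at 6.19, 6.78 and 6.97 in GFP-positive cells, with differences of -1.38 ± 0.34 and -1.58 ± 0.34 for the GFP-negative and GFP-positive fractions. For 1438048_at the differences were -1.80 ± 0.51 and -1.58 ± 0.51, although GFP-negative 2 (7.28) and GFP-positive 3 (7.44) came close to control 3 (7.64). The brightest of the 4, 1447584_s_at, had the largest standard error, and its groups overlapped between GFP-positive cells and controls. GFP-positive 1 stood at 9.02, above control 1 at 8.78, and GFP-negative 3 at 6.09 was far below the other GFP-negative arrays at 8.39 and 8.28. Its differences were -1.68 ± 0.71 in GFP-negative cells (-0.93 without GFP-negative 3) and -1.52 ± 0.71 in GFP-positive cells (-0.96 with array weights). Averaged over the 4 probe sets, Myct1 differed from control by -1.68 in GFP-positive and -1.70 in GFP-negative cells.

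Pecam1 encodes CD31, an immunoglobulin-type adhesion protein of endothelial junctions that is also carried by platelets, monocytes, neutrophils and lymphoid cells. It was the 1 gene of the 7 tested with a higher mean in both dnMPL fractions. Its probe set (1421287_a_at, Entrez gene 18613) stood at 6.68, 6.52 and 6.22 in controls, at 7.53, 8.39 and 7.46 in GFP-negative cells and at 7.15, 7.80 and 7.59 in GFP-positive cells. All 6 dnMPL arrays lay above all controls. The difference from control was 1.32 ± 0.34 in GFP-negative cells (limma adjusted p = 0.709) and 1.04 ± 0.34 in GFP-positive cells (adjusted p = 0.773).

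Marker lists of mature blood cells, of which only some are named above as carriers of CD31, had different levels across the same arrays. The mean level of 11 monocyte and macrophage markers ranged from 4.95 to 5.06 in controls, from 5.49 to 6.49 in GFP-negative cells and from 5.17 to 6.56 in GFP-positive cells, with 9 of 11 above the filter and Adgre1 and Cd14 below it. That of 13 granulocyte markers ranged from 6.57 to 8.79, from 8.96 to 10.5 and from 9.88 to 10.96, with all 13 above the filter. B cell markers (8 of 9 above the filter, Ms4a1 below it) lay at 3.84 to 5.64, 4.85 to 5.85 and 5.99 to 6.58. Megakaryocyte and platelet markers, in contrast, lay at 5.00 to 5.39, 4.67 to 5.26 and 4.53 to 4.75, with 6 of 12 above the filter and Ppbp, Gp5, Gp6, Treml1, Vwf and Clec1b below it. Erythroid markers (10 of 11 above the filter, Rhag below it) lay at 5.26 to 5.53, 6.40 to 6.76 and 6.74 to 6.96. The mean levels of the granulocyte, monocyte and erythroid lists thus ran the way of Pecam1 and opposite to Procr, Emcn and Myct1. Not every gene of these lists did. Of the 9 tested monocyte and macrophage markers, 3 had a lower mean than in controls in each comparison. Of the 10 tested erythroid markers, 2 were lower in GFP-positive and 3 in GFP-negative cells, and of the 13 granulocyte markers 0 were. The part of these cell types in any of these differences was not tested.

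Eng encodes endoglin, a co-receptor for TGF-beta and BMP ligands, and its 2 probe sets (Entrez gene 13805) disagreed. The brighter, 1417271_a_at, stood at 6.08, 7.09 and 6.47 in controls, at 5.98, 6.63 and 6.89 in GFP-negative cells and at 6.41, 6.35 and 6.36 in GFP-positive cells. The groups overlapped, and the differences of -0.047 (95% interval -0.84 to 0.74) and -0.17 (-0.96 to 0.62) were within the spread of the controls. The dimmer, 1432176_a_at, stood at 5.63, 4.65 and 6.81 in controls, at 4.49, 4.43 and 4.75 in GFP-negative cells and at 3.36, 4.20 and 4.99 in GFP-positive cells. It differed by -1.14 ± 0.57 and -1.51 ± 0.57 (limma adjusted p = 0.917 and 0.811), and by -0.58 and -0.96 without control 3, its highest array. The groups overlapped on this probe set as well.

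Jam3 encodes JAM-C, a junctional adhesion molecule that binds JAM-B and leukocyte integrins. Its 2 probe sets (Entrez gene 83964) share 1 design accession, and neither separated the groups. Probe set 1423504_at stood at 4.45, 4.45 and 5.20 in controls, at 4.97, 4.45 and 3.28 in GFP-negative cells and at 4.70, 4.37 and 4.21 in GFP-positive cells. Its differences were -0.47 (95% interval -1.47 to 0.53) in GFP-negative and -0.27 (-1.27 to 0.73) in GFP-positive cells. Probe set 1423503_at ranged from 3.74 to 4.95 over all 9 arrays, with differences of -0.20 ± 0.39 and -0.033 ± 0.39. At this number of arrays, changes within the 95% intervals cannot be told from none. For 1423504_at these include falls of over 1 unit, but not rises of that size.

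Cdh5 encodes VE-cadherin, the adherens junction protein that defines endothelium, and both of its probe sets were below the filter in all groups. Probe set 1422047_at (Entrez gene 12562) lay at 3.58 to 4.03 in controls, 3.74 to 4.16 in GFP-negative and 3.90 to 4.04 in GFP-positive cells. Probe set 1433956_at lay at 1.95 to 2.52, 2.38 to 2.99 and 2.52 to 3.12. Robo4, a roundabout receptor of endothelium and HSCs that helps to anchor stem cells in the niche, had 1 probe set (1426206_at, Entrez gene 74144). It stood at 4.74, 4.26 and 3.49 in controls, at 3.56, 3.34 and 4.59 in GFP-negative cells and at 3.89, 2.98 and 3.98 in GFP-positive cells. All 3 groups overlapped on Cdh5 1422047_at and on Robo4. On Cdh5 1433956_at the groups overlapped or touched, with control 1 and GFP-positive 1 at the identical value of 2.52. No test is given for either gene.

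**Figure D2:**
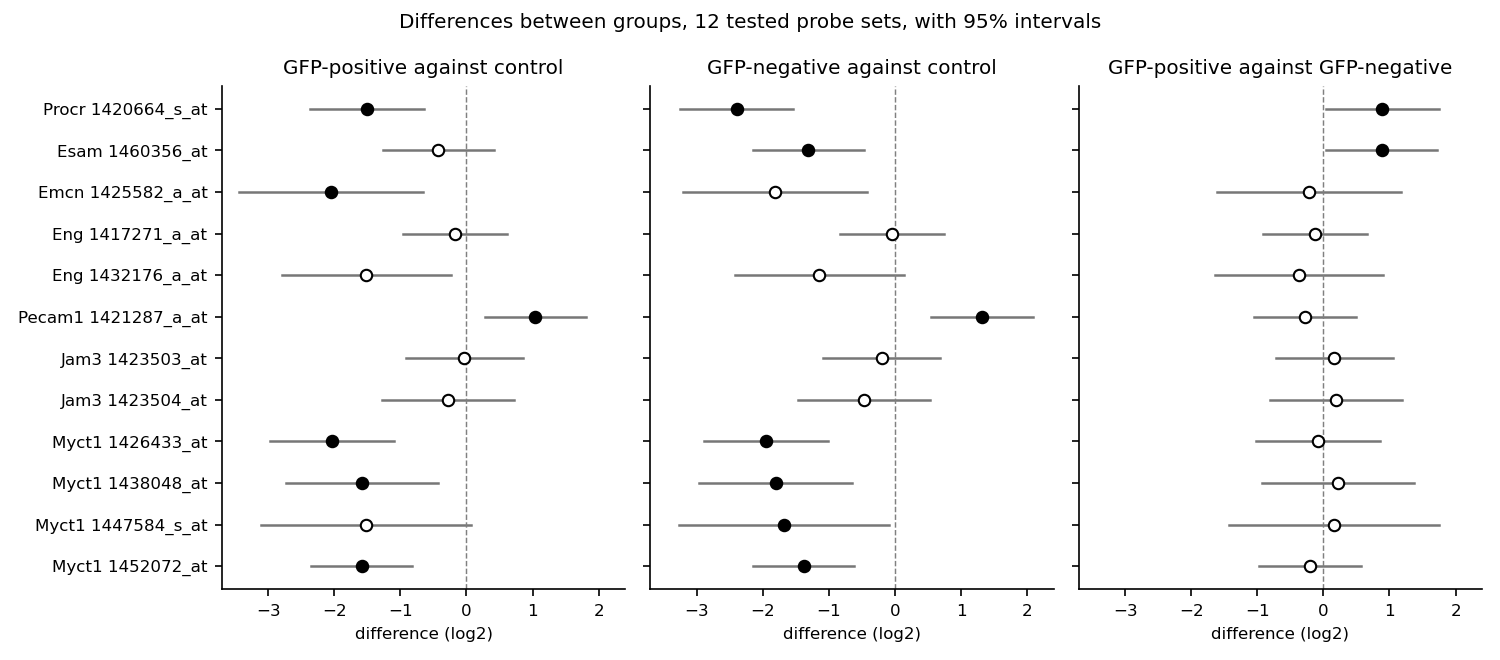
Difference between group means (log2, horizontal axis) for the 12 tested probe sets in each of the 3 comparisons; points are the limma estimates, lines their 95% intervals, and filled points mark groups that did not overlap. Against control most intervals of Procr, Emcn and Myct1 lie below 0 and those of Pecam1 above 0, while between the dnMPL fractions only Procr and Esam are filled.

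The comparison of GFP-positive with GFP-negative cells asks whether carrying the transgene goes with a further difference among LSK cells of dnMPL mice, and it also tests whether the differences of these fractions from control are unequal. Procr and Esam were higher in GFP-positive than in GFP-negative cells, by 0.89 ± 0.38 and 0.88 ± 0.37, with groups that did not overlap, but neither passed (limma adjusted p = 1 and 1). These 2 of 12 probe sets stand against a background of 3.69% separate in the higher direction, and 0 members were separate in the lower direction, against 2.78%. The same 2 were the members past an unadjusted p of 0.05 in the higher direction (background 1.22%), with 0 in the lower (background 1.49%), and 733 probe sets in all were past it. That count of 2 rests on single arrays. It was 0 without GFP-negative 3, GFP-positive 1 or GFP-positive 2, and 1 without control 1, control 2, GFP-negative 1, GFP-negative 2 or GFP-positive 3. Leaving out an array cannot make separate groups overlap, so these fits do not test the separation of Procr and Esam. Esam differed by 0.54 without GFP-negative 3, and the closest arrays of the fractions were 0.17 apart for Procr and 0.15 for Esam. For the other tested probe sets the fractions overlapped. The differences ran from -0.37 (Eng 1432176_a_at, 95% interval -1.64 to 0.90) to 0.22 (Myct1 1438048_at, -0.93 to 1.38), and the median over the 12 was 0.042.

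**Figure D3:**
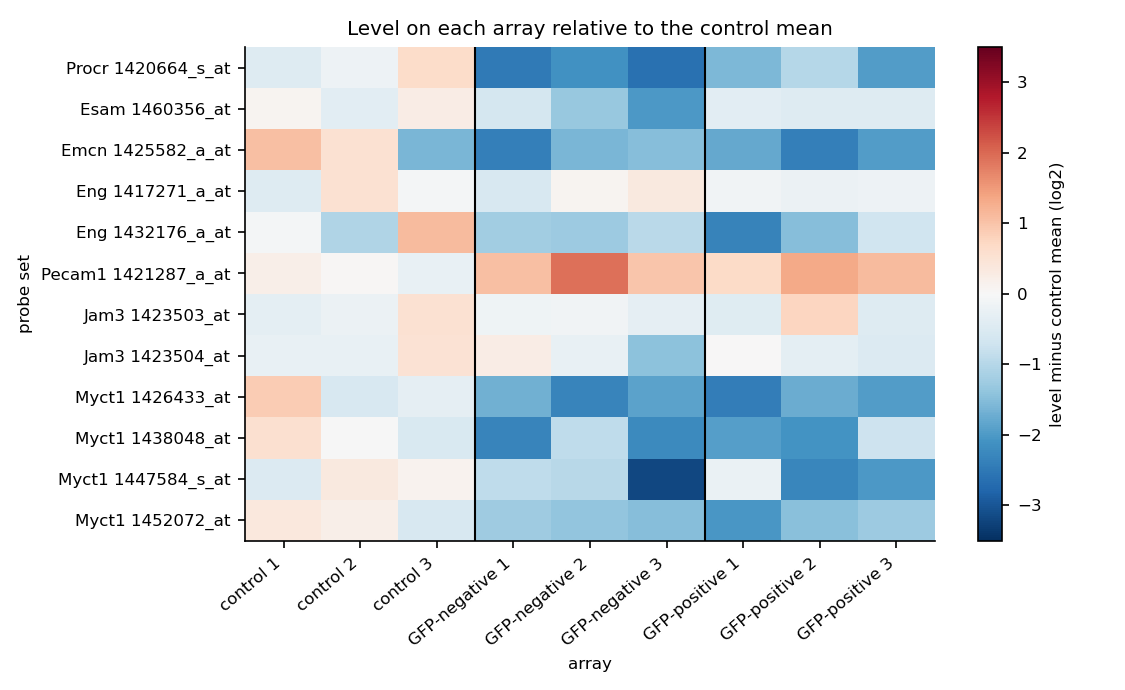
Level on each of the 9 arrays minus the control mean of the probe set (colour, log2) for the 12 tested probe sets; columns are arrays, separated by group. Most Procr, Emcn and Myct1 cells are blue on the 6 dnMPL arrays and Pecam1 is red, and Emcn on control 3 is as low as on GFP-negative 2, at 4.59.

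How closely the members varied together over the 9 arrays is described by Pearson correlations, given with no test since the arrays share group differences and normalization. The Myct1 probe sets designed on the same accession correlated at 0.923. The brightest Myct1 probe set, 1447584_s_at, correlated with the other Myct1 probe sets at only 0.458 to 0.551. The Jam3 probe sets, which also share a design accession, correlated at 0.348, and the Eng probe sets at -0.081. Emcn correlated with Myct1 1452072_at at 0.864, and Procr with Esam at 0.777 and with Myct1 1426433_at at 0.728. Pecam1 ran opposite, at -0.787 with Procr and -0.752 with Myct1 1426433_at. Among 10221 other genes that varied by an SD of at least 0.3, those most like Procr were Il17rc (0.957) and AU021092 (0.95), and those most like Esam were Phactr2 (0.948) and Arih2 (0.937). For Emcn they were Smim6 (0.949) and Marveld1 (0.945), for Pecam1 Atad3a (0.958) and Kifc1 (0.944), and for Myct1 1447584_s_at Pank1 (0.926) and Pde7a (0.923). For Eng 1417271_a_at they were Nenf (0.949) and Septin4 (0.939), and for Jam3 1423504_at Phxr4 (0.941) and Trp53i13 (0.936). With 9 arrays and this many genes, correlations of this size are the top of a long list and carry no test.

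Partners of these proteins were read from lists, each gene by its brightest probe set, and no listed gene passed limma's adjusted threshold. Over all 12400 genes read this way, 52.8% had a lower mean in GFP-positive and 53.5% in GFP-negative cells. At an unadjusted p under 0.05, 3% were lower and 3.14% higher in GFP-positive cells, and 2.51% were lower and 2.66% higher in GFP-negative cells. Of 10 tested genes of the protein C and thrombin pathway, in which EPCR acts, 0 were past an unadjusted p of 0.05 in GFP-positive cells and 1 was lower in GFP-negative cells, F2rl2, the thrombin receptor PAR3, at -0.96 ± 0.42. F2r, the thrombin receptor PAR1, and Thbd, thrombomodulin, differed by -0.61 ± 0.68 and -0.82 ± 0.63 in GFP-positive and by -0.92 ± 0.68 and 0.14 ± 0.63 in GFP-negative cells. The median of the pathway was -0.19 and -0.13, with 7 of 10 and 5 of 10 genes lower. F2rl3, the thrombin receptor PAR4, differed by -0.69 ± 0.40 and Gas6, a ligand related to protein S, by 0.70 ± 0.46 in GFP-positive cells. S1pr1, the sphingosine-1-phosphate receptor that acts downstream of EPCR in endothelium, differed by -0.70 ± 0.38 in GFP-negative cells, with groups that did not overlap.

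Of 19 tested genes of the endoglin, TGF-beta and BMP receptor pathway, 0 were past that threshold in either comparison. The pathway medians were -0.16 and -0.20. Tgfbr3, the other TGF-beta co-receptor, differed by -0.87 ± 0.54 in GFP-positive and -0.94 ± 0.54 in GFP-negative cells. The type II receptors Bmpr2, Acvr2a and Acvr2b differed by -0.91 ± 0.52, 0.87 ± 0.48 and -0.51 ± 0.30 in GFP-positive cells, and Smad2 and Smad4, which carry the signal to the nucleus, by -0.78 ± 0.58 and -0.41 ± 0.34 in GFP-negative cells. Among 26 junction partners and relatives, medians were -0.14 and 0.079, and 1 gene was past an unadjusted p of 0.05 in each comparison, in the higher direction. It was Cd177, a neutrophil protein that binds CD31, in GFP-positive cells (2.90 ± 1.11) and the adhesion protein Vcam1 in GFP-negative cells (0.995 ± 0.43). Both were also higher in the other fraction, Cd177 by 1.96 ± 1.11 in GFP-negative and Vcam1 by 0.82 ± 0.43 in GFP-positive cells. The groups overlapped for Cd177 in both comparisons and for Vcam1 in GFP-negative cells, but not for Vcam1 in GFP-positive cells. Ptpn6, the phosphatase SHP-1 that CD31 can recruit, differed by 0.50 ± 0.30 in GFP-positive cells. Tjp1, which encodes the tight junction scaffold ZO-1, differed by -1.43 ± 0.68 in GFP-negative cells, with groups that did not overlap.

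In the SLIT and ROBO pathway, 14 genes were tested, with medians of -0.21 and -0.080. At an unadjusted p under 0.05, 1 was lower and 2 were higher in GFP-positive cells, and 2 were lower and 1 was higher in GFP-negative cells. Srgap3, a GTPase-activating protein bound by ROBO receptors, differed by -1.78 ± 0.47 and -1.19 ± 0.47, and Cxcr4, the receptor through which CXCL12 retains HSCs in marrow, by 0.79 ± 0.32 and 0.72 ± 0.32. Pxn, paxillin, which binds the tail of ROBO4, differed by 1.36 ± 0.60 in GFP-positive cells, and Vasp, an actin regulator, by -1.08 ± 0.34 in GFP-negative cells. Of 7 tested sialomucins, the family of endomucin, 0 were past the unadjusted threshold. Cd34 differed by 0.26 ± 0.34 and 0.0047 ± 0.34, Podxl, podocalyxin, by -0.82 ± 0.44 and -0.85 ± 0.44, and Spn, CD43, by -0.42 ± 0.30 and -0.61 ± 0.30. Cd24a differed by 0.30 ± 0.33 in GFP-positive and Cd164 by 0.50 ± 0.42 in GFP-negative cells.

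The list of transcription factors common to stem cells and endothelium, which also holds the receptor Notch1, had 21 tested genes. Of these, 2 were lower in GFP-positive cells at an unadjusted p under 0.05, and 1 was lower and 1 higher in GFP-negative cells. Lmo2, an adaptor of the TAL1 complex, differed by -0.88 ± 0.26 and -0.65 ± 0.26, and Erg, an ETS factor, by -1.03 ± 0.39 and -0.88 ± 0.39, with groups that did not overlap in either comparison. Mecom, which encodes the stem cell factor EVI1, differed by -0.90 ± 0.41 in GFP-positive cells, with groups that did not overlap. Notch1 differed by 1.09 ± 0.41 in GFP-negative cells, with groups that overlapped. The medians of the list were -0.30 and -0.26. The endothelial receptor kinases Tie1 and Tek, which HSCs share, differed by -1.63 ± 0.67 and -1.76 ± 1.06 in GFP-positive cells and by -1.13 ± 0.67 and -2.68 ± 1.06 in GFP-negative cells. They belong to a list of endothelial markers in which 9 of 15 tested genes had higher means in each comparison. Flt4, the VEGF-C receptor of lymphatic endothelium, named here after its values were seen, differed by 0.60 ± 0.26 and 0.49 ± 0.26, with groups that did not overlap in either comparison.

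**Figure D4:**
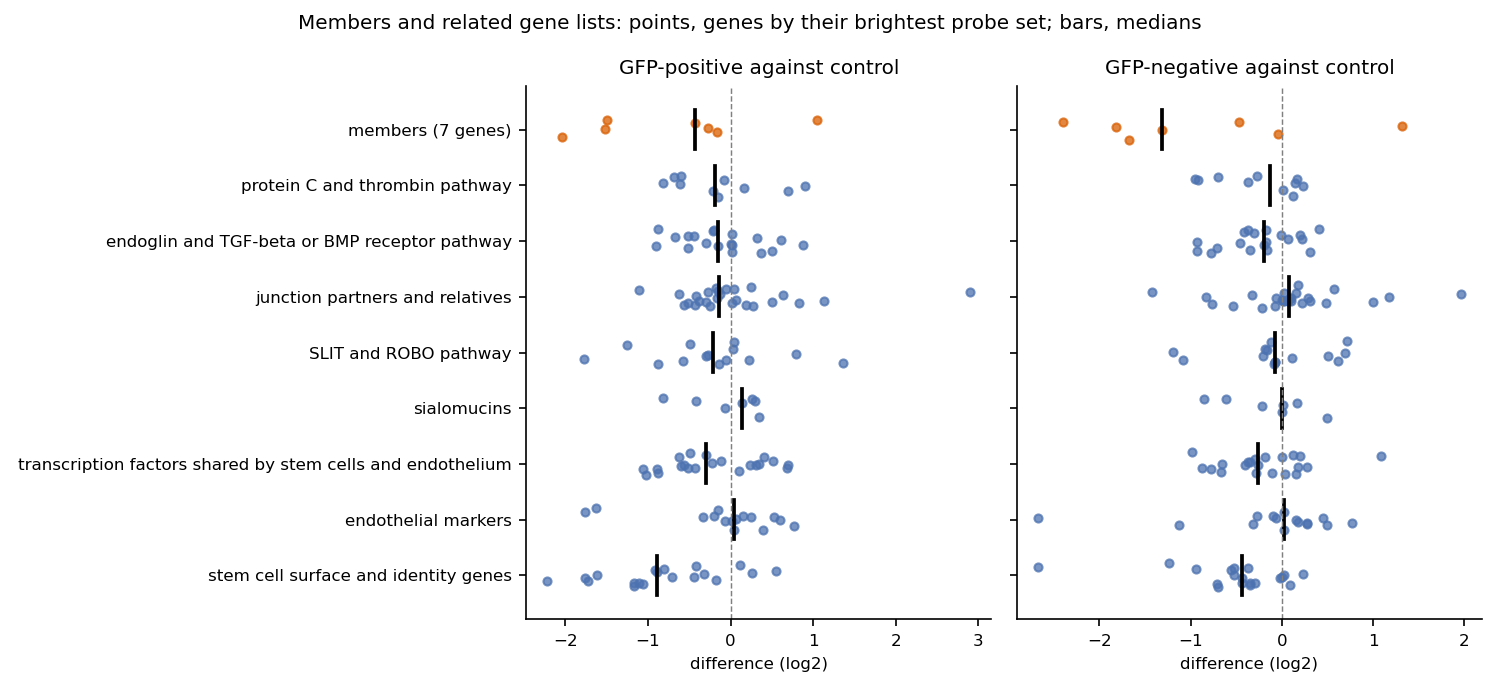
Difference from control (log2, horizontal axis) in GFP-positive and GFP-negative cells for the 7 tested members (orange) and for the tested genes of 8 related lists (blue), each gene by its brightest probe set; black bars are medians. The members' medians are -0.43 and -1.31, and those of the pathway, family and endothelial marker lists lie between -0.21 and 0.14. Those of the shared transcription factor list are -0.30 and -0.26, and those of the stem cell surface and identity genes -0.90 and -0.43.

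The sort was checked against markers of endothelium, of the lineages it removes and of the gate. The mean level over 27 endothelial markers ranged from 4.41 to 4.69 in controls, from 4.44 to 4.56 in GFP-negative cells and from 4.37 to 4.90 in GFP-positive cells. Of the 27, 15 were above the filter, and Kdr, Flt1, Nos3, Vwf, Plvap, Cldn5 and Clec14a were among the 12 below it, as was Cdh5. Over the 15 tested markers the median difference from control was 0.040 in GFP-positive and 0.025 in GFP-negative cells. The lineage genes Itgam and Ptprc were above the filter and Cd3e was below it, with a mean of the 3 at 5.53 to 6.12 in controls, 5.82 to 6.63 in GFP-negative and 5.81 to 6.74 in GFP-positive cells. Ptprc was the brightest of them, with means of 10.27, 10.17 and 10.28 in these groups. Only isoforms of it serve as a lineage marker, so its level does not measure cells that the sort should remove. Means of Itgam were 4.09, 4.09 and 4.72, and those of Cd3e 2.82, 4.02 and 3.63. Kit, which defines the LSK gate, was measured on all arrays at 6.38 to 8.73, lowest on GFP-positive 2, with differences of -0.92 ± 0.48 and -0.44 ± 0.48. Of 19 tested stem cell surface and identity genes, Tek among them, 16 had a lower mean in GFP-positive and 15 in GFP-negative cells, with medians of -0.90 and -0.43, and 7 and 2 were lower at an unadjusted p under 0.05, against 3% and 2.51% of all genes.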

How the data were processed

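The deposited values are log2 RMA values of 9 Affymetrix arrays, 1 per sample. RMA is named, without a version, per the submitters' processing notes. RMA brings the probes of all arrays to 1 distribution and reduces the probes of each probe set to 1 value by median polish. RNA was amplified and biotin-labelled before hybridisation, per the labels' protocols. Scanner files were not used here.

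Genes were named from the platform annotation (34945 of 45037 probe sets with 1 gene, 932 with several, 9160 with none), with symbols updated by Entrez number for 34741. The R 4.3.3 package limma 3.58.1 was used to fit means of the 3 groups over all 9 arrays for the 27024 probe sets with a mean above the 40th percentile, with Benjamini-Hochberg adjustment over all of them. The fit was tested on simulated data. An exact test of 3 against 3 arrays cannot go below p = 0.1.

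The members, lists and other settings were chosen with earlier results of these data known. Named genes were all members, the 3 genes with the smallest p of each pathway, family or factor list in each comparison with control, a set of always-named genes such as Tek, Kit and Cxcr4, and for each member the 2 genes most correlated with it. Genes absent from the annotation used are not analysed here. Alternatives changed the filter, the probe set, the prior, array weights, normalization, the arrays in the fit and the threshold. Promoters came from RefSeq (GRCm38.p6). Figures were drawn with matplotlib 3.10.9.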

Additional observations from a re-analysis of the deposited data

How the results depend on the processing

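The count of probe sets past an adjusted p of 0.05 was 0 in each comparison under all 19 other settings in limma, a threshold of 0.1 among them. The smallest adjusted p over all probe sets and fits was 0.139 and that of a member 0.174. Unadjusted, 1588, 1434 and 733 probe sets were under 0.05 in GFP-positive and GFP-negative cells against control and between the fractions. Groups share replicate numbers, but deviations of same-numbered arrays from their group means correlated at -0.252 to 0.091, and the labels tie no numbers to shared mice, so the numbers were not taken as pairs; whether mice were shared is not known from this. With the replicate number as a block these were 1564, 1295 and 723, with 0 adjusted calls and, between the fractions, 0 members under 0.05 in place of 2 (Procr and Esam), and 2176, 2197 and 1641 with array weights. Of 618 values of the 36 member results, 593 kept direction and call and 25 turned direction. These 25 fell in 15 results. No difference of Procr, Esam or Emcn turned, nor did any difference of Myct1 or Pecam1 from control. The cause was not tested.

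Leaving out 1 array at a time, Eng 1417271_a_at ran from -0.40 to 0.10 in GFP-positive and -0.28 to 0.22 in GFP-negative cells against control, and from -0.38 to 0.071 between the fractions. Jam3 1423503_at ran from -0.43 to 0.23, -0.37 to 0.069 and -0.23 to 0.37, and Jam3 1423504_at from -0.84 to 0.0096 in GFP-negative cells and -0.28 to 0.56 between the fractions. Also between the fractions, Eng 1432176_a_at ran from -0.77 to 0.040, Pecam1 from -0.45 to 0.020, and Myct1 from -0.26 to 0.11 (1426433_at), -0.20 to 0.68 (1438048_at), -0.59 to 0.56 (1447584_s_at) and -0.37 to 0.025 (1452072_at). Without control 3 and GFP-positive 2 together, Jam3 1423503_at differed by 0.069 in GFP-negative cells and by -0.23 between the fractions, and Jam3 1423504_at by 0.0045 in GFP-positive cells. With array weights Jam3 1423503_at and Myct1 1438048_at differed by -0.10 and -0.0076 between the fractions.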

Other observations

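Some arrays carried 1 identical value in member probe sets, as median polish in RMA can give. Within a group, such a tie can make the spread look smaller than it is. Besides Esam, this held for Jam3 1423504_at (controls 1 and 2, and also GFP-negative 2, at 4.45). The ties of Emcn (control 3 and GFP-negative 2, at 4.59) and of both Cdh5 probe sets, where 2 arrays each shared a value, joined arrays of different groups. Procr, Pecam1, both Eng probe sets and the 4 Myct1 probe sets had 9 separate values.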
